A study of Homo sapiens with 4 samples.

Results

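The regions described here are the H4K20me1 peaks that lie in the second or a later intron of a gene in Kasumi-1 cells, a human acute myeloid leukemia line with the t(8;21) translocation. They were taken from the 25514 peaks of the series as those annotated to intron N of M with N of at least 2. Chromosome 6 and segments of chromosomes 2, 5, 8, 9 and 17 were left out by the rule, while 7 peaks on alternate scaffolds of chromosome 6 were kept. This kept 4129 peaks, 16.2% of all peaks and 21.3% of the 19376 outside those segments, and left out 1371 of the 5500 later-intron peaks. The rule used position alone and no measured value. H4K20me1, monomethylated lysine 20 of histone H4, was mapped by CUT&Tag, in which an antibody tethers the Tn5 transposase to chromatin so that marked DNA is cut and tagged for sequencing. The series held 4 libraries of 100000 cells, 2 labelled sgNT with WT genotype (a non-targeting guide) and 2 labelled sgSETD8 with SETD8 knockout genotype, made with CRISPR/Cas9. The labels name no separate cultures, clones or time after editing, and all 4 libraries share the line and its culture conditions. The deposited table gave 1 value per group and peak. Its header does not name the groups, so values are given as first-listed and second-listed. By the table's name treated comes ahead of control, so the first-listed group would be the knockout, but no header settles this. With 1 value per group, no difference below has a replicate check.

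The methyl group of H4K20me1 is written by SETD8, whose current symbol is KMT5A. The mark accumulates towards mitosis, and KMT5B and KMT5C extend it to the di- and trimethylated forms. It is known to spread over the bodies of many transcribed genes and over the inactive X chromosome, and it is read by chromatin-compacting proteins such as L3MBTL1. Introns make up most of the length of long genes, so later introns sample the gene body away from the start. The relative position N/M used below runs from near 0 for an early intron of a gene with many introns to 1 for the last intron.

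Some later introns hold another transcription start of the same gene or the start of a different gene. RefSeq starts (GRCh38.p14) fell inside 25 of the 4129 peaks, 28 starts in all, of which 19 belonged to genes known only by LOC or LINC symbols. In 5 peaks the start was one of the host gene itself. The 250 bases before the start are shown for 4 such starts, as the promoter windows that lie wholly inside a later-intron peak and belong to genes with a proper symbol. CpG dinucleotides are in capitals.
RNF220: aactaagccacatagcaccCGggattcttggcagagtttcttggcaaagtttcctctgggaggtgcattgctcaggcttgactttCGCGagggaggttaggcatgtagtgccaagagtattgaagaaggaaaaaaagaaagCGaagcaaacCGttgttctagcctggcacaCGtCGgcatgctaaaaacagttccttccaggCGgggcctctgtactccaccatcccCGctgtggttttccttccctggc
TNS1: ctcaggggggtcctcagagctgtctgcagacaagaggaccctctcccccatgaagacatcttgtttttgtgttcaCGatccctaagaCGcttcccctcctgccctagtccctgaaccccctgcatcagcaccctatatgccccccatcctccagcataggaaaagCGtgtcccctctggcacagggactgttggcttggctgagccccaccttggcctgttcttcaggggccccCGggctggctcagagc
TET1: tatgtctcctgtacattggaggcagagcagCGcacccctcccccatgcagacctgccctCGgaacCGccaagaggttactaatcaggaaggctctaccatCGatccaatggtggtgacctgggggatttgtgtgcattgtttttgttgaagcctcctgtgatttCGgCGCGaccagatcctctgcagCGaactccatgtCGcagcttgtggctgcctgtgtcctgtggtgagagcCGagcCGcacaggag
FAM193A: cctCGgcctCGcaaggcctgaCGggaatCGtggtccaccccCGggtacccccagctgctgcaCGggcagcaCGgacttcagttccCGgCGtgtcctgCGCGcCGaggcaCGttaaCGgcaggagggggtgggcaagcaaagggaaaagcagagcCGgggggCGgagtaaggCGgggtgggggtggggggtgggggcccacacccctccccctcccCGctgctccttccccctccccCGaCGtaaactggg
The RNF220 window, chr1:44423751-44424000 on the plus strand, lies in intron 2 of 14 and holds 9 CpG. The TNS1 window, chr2:217850189-217850438 on the minus strand, lies in intron 16 of 32 and holds 4 CpG. TET1 has 2 starts in its peak in intron 2 of 11, and the window of the later one, chr10:68600224-68600473 on the plus strand, holds 11 CpG. FAM193A starts inside a peak annotated to intron 3 of 4 of an RNF4 transcript, and its window, chr4:2536397-2536646 on the plus strand, holds 20 CpG. None of the 8 later-intron peaks annotated to RNF4 lay inside the RefSeq span of RNF4. The median over all 35116 RefSeq windows was 11 CpG, so the RNF220 and TNS1 windows were below it, the TET1 window equalled it and the FAM193A window was above it. The RUNX core TGTGGT, searched on both strands, occurred once in each of the RNF220 and TET1 windows, against 11% of all windows holding it.

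The peaks around these starts differed in direction. The RNF220 peak (chr1:44423730-44425801), in a gene for a ubiquitin ligase, held 187 first-listed and 247 second-listed reads. Its log2 fold change was −0.33, with an exact 95% interval of −0.63 to −0.06. TNS1, which links integrin adhesions to actin, gave 134 and 72 reads over chr2:217849412-217851699, or 0.95 on the log2 scale (0.53 to 1.39). TET1, an enzyme that oxidises methylated cytosine, gave 66 reads in each group over chr10:68599133-68600675. The peak at the FAM193A start, annotated to RNF4, gave 112 and 113. The other host-gene starts were in peaks of SH3KBP1 (0.57) and LINC03006 (0.04). The 25 peaks had a median of 0.04, and 15 were above 0. Fold changes are first-listed minus second-listed on the authors' scaled log2 values. Intervals are Clopper-Pearson intervals from recovered reads and cover counting error only, with no spread between libraries.

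Later-intron peaks were spread over many genes. Of the 4129, 3843 had a host gene with a symbol, in 1699 genes, and 3576 of these peaks (93.1%) lay in protein-coding genes and 254 in long noncoding RNAs. In 990 hosts (58.3%) there was 1 such peak, in 540 there were 2 to 4, in 140 there were 5 to 11, and in 29 there were 12 or more. These 29 hosts held 492 peaks, 11.9% of the total. Hosts were long: the median RefSeq length of the 1562 protein-coding hosts was 116 kb, against 24.1 kb for all 20056 protein-coding genes. The host named by the annotation was also the nearest gene for 3157 peaks and another gene for 697, and 184 peaks on primary chromosomes lay outside the RefSeq span of their named host.

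Early introns held the larger share. Intron 2 held 1450 peaks (35.1%), intron 3 held 849 (20.6%), intron 4 held 432 (10.5%), introns 5 to 9 held 834 (20.2%) and introns from 10 on held 564 (13.7%). The host transcript had a median of 10 introns (quartiles 5 and 20, highest 115), and the median N/M was 0.45 (quartiles 0.22 and 0.75). Cut at every 0.2 of N/M, the bins held 960, 958, 704, 672 and 835 peaks in order of rising N/M. The last intron of the named transcript held 587 (14.2%). In total 2814 introns held a peak, and 661 of them held 2 or more, which together contained 1976 peaks. N/M counts introns and not bases. The median base position was 0.36 of the gene's length in the first bin and 0.76 in the last. The named transcript can also be a short one: FNDC3B peaks in intron 3 of 3 lay at 0.27 to 0.39 of the gene. Over the 2965 peaks with a base position in their host, N/M and the share of the gene's length passed correlated with r = 0.47 across peaks that share genes and libraries. The median peak width was 983 bp (quartiles 648 and 1386).

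By intron order (N/M), the mark was somewhat stronger over early than over late introns. The median signal over both groups, in the authors' scaled reads per kb of peak, was 73.4 at N/M up to 0.2, then 66.7, 63.1 and 62.7, and 63.7 in the last bin. The first-listed group went from 77.7 to 63.9 and the second-listed group from 72.3 to 61.0. First-intron peaks stood higher, at 93.5 and 80.1 scaled reads per kb in the groups (2906 peaks), promoter peaks within 1 kb of a start at 83.2 and 77.1 (5456 peaks), and distal intergenic peaks lower, at 50.5 and 51.9 (3977 peaks). Width did not follow this order, with median widths of 986, 964, 1002, 934 and 1019 bp over the 5 bins. Binned instead by base position in the host (2965 peaks), the medians over both groups were 69.6, 72.3, 70.2, 68.7 and 66.1. The range was smaller there, and the first bin was not the highest. No test was made over peaks, which share genes and libraries.

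**Figure D1:**
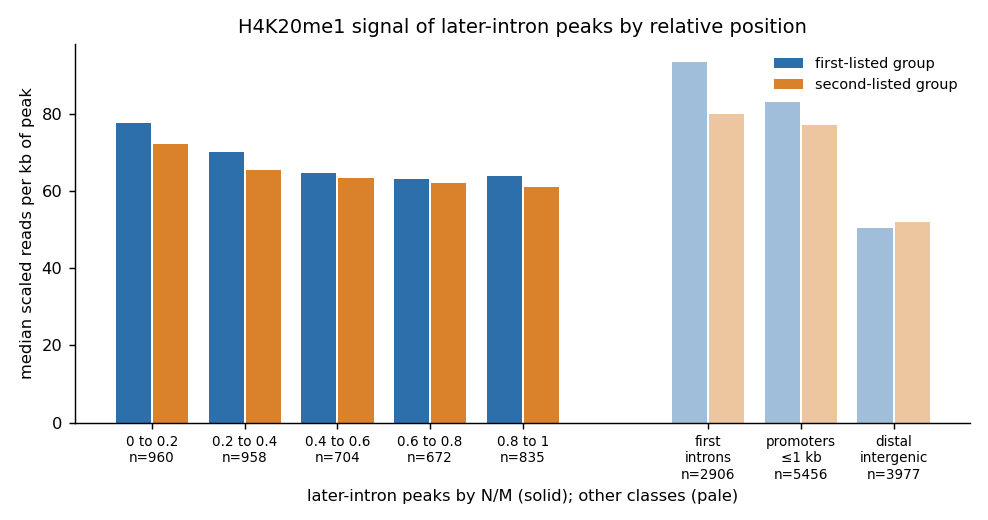
Median scaled reads per kb of peak in the first-listed (blue) and second-listed (orange) group, for later-intron peaks in bins of relative position N/M (solid bars) and for 3 other peak classes outside the left-out segments (pale bars), with the number of peaks under each pair. The solid bars go from 77.7 and 72.3 in the first bin to 63.9 and 61.0 in the last, and all of them stand below first introns and above distal intergenic peaks.

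Within single transcripts the step was small. A comparison chosen after these values were seen took the 164 transcripts with a peak both at N/M up to 0.4 and above 0.6 (455 and 310 peaks). Their medians of mean scaled reads per kb were 66.2 for the early and 64.0 for the late peaks. The late peaks were weaker in 88 transcripts and stronger in 76. In transcripts of at least 10 introns (2223 peaks), pooled over genes, the bins ran from 73.4 through 65.1, 62.4 and 61.5 to 59.9. The bins differ in the transcripts they hold: the median number of introns was 20 in the first bin and 5 in the last, since an N/M of up to 0.2 needs at least 10 introns.

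Between the groups, later-intron peaks were slightly higher in the first-listed one on the authors' scale, as were the other peaks outside the left-out segments. Their median log2 fold change was 0.09 (quartiles −0.17 and 0.36), with 2459 peaks above 0 (59.6%) and 1625 below. The median was also 0.09 over all 19376 peaks outside the left-out segments, of which 61.6% were above 0, and 0.06 over the whole table. With both columns set to equal reads in peaks the median was −0.02, and 52.8% of the peaks were below 0, so the sign of the whole set changes with the scaling. The labels name no spiked-in DNA, and without it an even loss of the mark over all peaks would not appear in such values. Fewer marked cells and less mark per cell cannot be told apart. No later-intron peak passed an adjusted p of 0.05 in the authors' deposited table (0 of 4129, against 0% of all 25514), and the smallest adjusted p was 0.433. By the unadjusted p of the authors' deposited table, made with DESeq per the submitters' processing notes, and a limit of 0.05, 145 peaks (3.51%) were on the higher and 51 (1.24%) on the lower side for the first-listed group. The background was 3.37% higher and 1.69% lower over the whole table, and 3.56% and 1.17% outside the left-out segments. Log2 fold changes of at least 1 were found in 72 peaks (1.74%) and of −1 or less in 24 (0.581%), against 1.55% and 0.909% of the whole table and 1.70% and 0.712% outside the segments. Later introns were thus close to the background outside the segments by each of these counts.

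Along intron order (N/M) the group difference changed little. The median log2 fold changes in the 5 bins of N/M were 0.11, 0.11, 0.06, 0.06 and 0.08, and the shares of peaks above 0 were 62.7%, 61.5%, 57.1%, 55.8% and 58.8%. The quartiles spanned −0.14 to 0.39 in the first bin and −0.16 to 0.34 in the last, far wider than the steps between bins. In transcripts of at least 10 introns the medians were 0.11, 0.12, 0.09, 0.03 and 0.06. In the 164 transcripts with early and late peaks, the late mean was the lower one in 76 and the higher one in 86, with a median difference of 0.03. Peaks of the last intron had a median of 0.08, against 0.09 for the others. First introns had a higher median, 0.18, with 68.9% above 0, promoters within 1 kb had 0.11 and distal intergenic peaks 0.03.

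The median difference varied more with signal than with position. Later-intron peaks were cut by mean signal into 4 classes of equal size. The weakest class had a median log2 fold change of 0.06 (55.7% above 0), the next 0.01 (50.6%), then 0.08 (58.8%), and the strongest 0.21 (73.2%). Set to equal reads, the median of the strongest class was 0.10. Peaks with at least the median signal of the set gave, by bin of N/M, 0.18, 0.17, 0.15, 0.10 and 0.14. Low-signal peaks carry the wider counting error: the median peak held 62 and 63 reads in the groups, and 62 peaks stood at the lowest step of both columns.

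**Figure D2:**
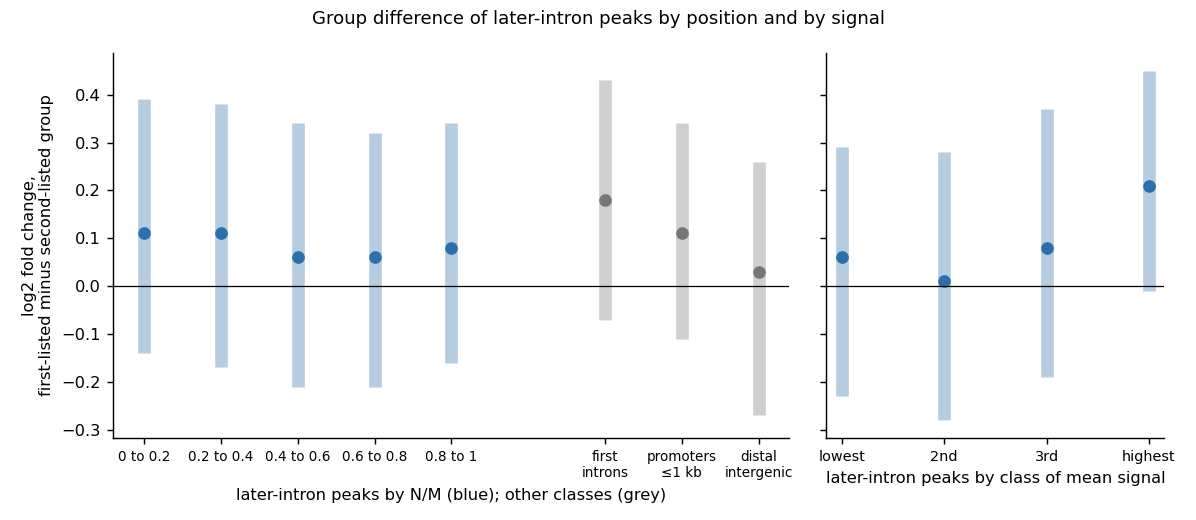
Log2 fold change (first-listed minus second-listed group) of later-intron peaks by bin of N/M and of 3 other classes (left), and of later-intron peaks by class of mean signal (right). Points are medians and bars run from the first to the third quartile. The medians by position stay between 0.06 and 0.11, while the strongest class reaches 0.21.

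With peaks of all signal levels together, host length separated the medians more than N/M, in a grouping chosen after values had been seen. Among protein-coding hosts, 741 peaks in genes of 500 kb or longer had a median log2 fold change of −0.02 and 47.9% above 0. In genes of 150 to 500 kb (1398 peaks) the median was 0.13, in genes of 50 to 150 kb (1043 peaks) 0.16, and in genes under 50 kb (394 peaks) 0.11. Signal differed too, with 81.1 scaled reads per kb in hosts of 50 to 150 kb and 55.9 in the longest, and its part in the group difference was not tested. With at least the median signal, peaks of the longest hosts stood at 0.09 and those of hosts of 150 to 500 kb at 0.19. Hosts of 50 to 150 kb also had 0.19, and hosts under 50 kb 0.14. The N/M bins at that signal had medians from 0.10 to 0.18, so both groupings then spread about alike. Peaks in long noncoding RNA hosts had a median of −0.03 with 55.1 scaled reads per kb, and protein-coding hosts as a whole 0.11 with 68.6.

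Among peaks with at least the median signal of the set, those highest in the first-listed group lay in genes of several roles. ANKRD28, a regulatory subunit of protein phosphatase 6, led with 125 first-listed and 46 second-listed reads over chr3:15785193-15786116 in intron 2 of 27. This gave 1.5 on the log2 scale, with an exact 95% interval of 1.00 to 2.02. CREBRF, a regulator of the CREB3 family of transcription factors, gave 115 and 48 reads in intron 4 of 8 (chr5:173098882-173099612), a log2 fold change of 1.32 (0.82 to 1.83). DYNC1H1, the heavy chain of cytoplasmic dynein, gave 97 and 41 reads in intron 11 of 77 (chr14:101992669-101993196), at 1.30 (0.76 to 1.86). All 3 intervals stay above 0.5, and each is counting error alone.

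The other 7 of the 10 highest hosts, 1 peak each, were ELK4 at 1.28, UBE2E2 and PDE4B at 1.25, FAM107B at 1.22, ZBTB10 and ATP2C1 at 1.19 and PSD3 at 1.18. PDE4B degrades cyclic AMP, and its peak in intron 8 of 16 held 114 and 50 reads. UBE2E2 is a ubiquitin-conjugating enzyme, and its peak in intron 3 of 5 also held 114 and 50. ATP2C1, the calcium and manganese pump of the Golgi, was the one case in a last intron, 26 of 26, with 171 and 78 reads. The ELK4 peak lies outside the RefSeq span of ELK4, nearest to SLC60A1. FAM107B and ZBTB10 had the most reads of these, 236 and 105 against 251 and 114. Unadjusted p-values of the 10 in the authors' deposited table ran from 0.000413 to 0.00501. Of the 10, 7 lay at N/M up to 0.5, where the median over all later-intron peaks was 0.45.

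Under the same limit on signal, 4 of the 10 lowest and 2 of the 10 highest peaks lay in hosts longer than 500 kb. Of all 2080 peaks with that signal, 250 lay in protein-coding hosts of 500 kb or longer. The shortest host was 86.6 kb among the 10 lowest and 24.1 kb among the 10 highest. SYT1, the calcium sensor of synaptic vesicle release, gave 46 and 123 reads in intron 10 of 11 (chr12:79406980-79408532), a log2 fold change of −1.36 (−1.88 to −0.86). CTNNA3, a cell-adhesion catenin, gave 40 and 94 reads in intron 5 of 17 (chr10:67225079-67225593), at −1.18 (−1.75 to −0.63). EPHB1, an ephrin receptor, gave 43 and 100 reads in intron 2 of 3 (chr3:134807078-134808388), at −1.16 (−1.71 to −0.63). CSMD1 followed at −1.13, then LRP1B, a large lipoprotein-receptor relative, at −0.94. PEMT, which makes phosphatidylcholine, stood at −0.90 and ARID2, a subunit of the PBAF chromatin remodeller, at −0.89. The potassium channel gene KCNB2 and ZMAT4 were at −0.89 and L3MBTL4, a relative of the reader L3MBTL1, at −0.86.

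The median RefSeq length of these 10 hosts was 463 kb, against 179 kb for the 10 highest. Their unadjusted p-values in the authors' deposited table ran from 0.00131 to 0.0409. Of the 10 lowest, 7 also lay at N/M up to 0.5. Of the 2080 peaks with that signal, 553 lay at N/M up to 0.2 and 491 from there to 0.4. N/M does not place a peak along the bases: the EPHB1 peak, at 0.67, lay at 0.03 of the gene's length. With at least the median signal, the highest peak of each N/M bin was in ANKRD28, ZBTB10, CREBRF, ANTXR2 and ATP2C1 in order, and the lowest in CSMD1, CTNNA3, LRP1B, EPHB1 and SYT1. ANTXR2, the anthrax toxin receptor that binds collagen, gave 135 and 64 reads in intron 11 of 16, at 1.13 (0.69 to 1.59). All of these were ranked on the difference itself, so their sizes are a description. With weaker peaks included, log2 fold changes ran from −2.94 to 2.38.

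**Figure D3:**
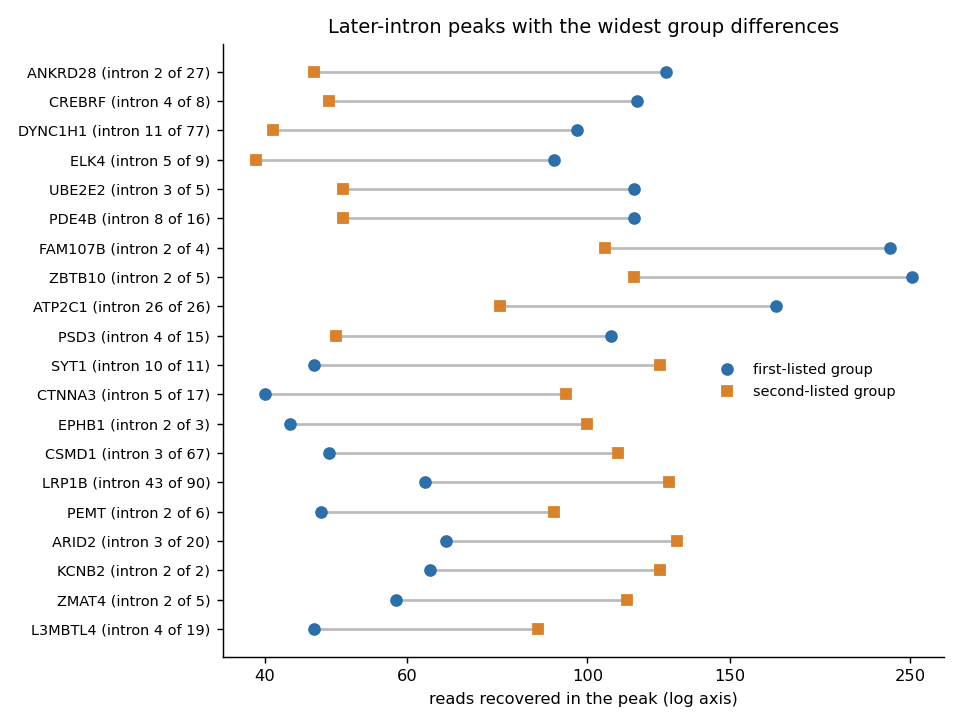
Reads recovered in the first-listed (blue circles) and second-listed (orange squares) group for the 10 highest and 10 lowest later-intron peaks of at least median signal, 1 per host gene, on a log axis. The upper 10 rows run from 91 to 251 reads in the first-listed group, and the lower 10 from 40 to 67.

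The 3 peaks with most reads were annotated to PDGFRA and LRRC20. The first of them, 1428 and 1095, was annotated to intron 12 of 23 of a PDGFRA transcript at chr4:54056511-54058575, with a log2 fold change of 0.44 (0.33 to 0.55). A second peak of that intron, chr4:54020144-54024009, held 1176 and 1073 reads (0.19, 0.07 to 0.31). Both lie outside the RefSeq span of PDGFRA, a receptor tyrosine kinase, and their nearest gene was CHIC2. All 7 peaks under that name were above 0 and none lay inside the RefSeq gene. LRRC20 came next with 942 and 953 reads over chr10:70331582-70335410 in intron 2 of 3, a log2 fold change of 0.04 (−0.09 to 0.17). KMT5A itself had 2 later-intron peaks, both in intron 5 of 8, with 284 and 243 reads (chr12:123398345-123399648, 0.28) and 79 and 74 reads (0.15). A histone mark over the locus checks neither the edit nor the enzyme.

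The 6 hosts with most later-intron peaks all held peaks on both sides of 0. The share above 0 went from 11 of 20 in SOX2-OT to 25 of 26 in FNDC3B. CTNNA3 held 39 peaks in 12 introns along 1851 kb, with log2 fold changes from −1.18 to 0.65. Its median was 0.09, yet its summed reads, 2484 and 2632, gave −0.03 (−0.11 to 0.05), so the sign depends on the summary. Its lowest peak in intron 5 lay among 10 others of that intron, of which chr10:67318601-67319256 reached 0.65. SOX2-OT, a long noncoding RNA across the SOX2 locus, held 20 peaks with 1340 and 1362 reads, 11 above 0 and 9 below. Their median densities were 64.6 and 60.3 scaled reads per kb, against 66.0 over all later-intron peaks.

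MED13L, a subunit of the Mediator kinase module, was more strongly marked, with 27 peaks and a median of 159 scaled reads per kb. Its reads summed to 5437 and 4718, a log2 fold change of 0.26 (0.21 to 0.32), and 22 of the 27 peaks were above 0. In intron 2 the strongest by density, chr12:116188623-116188951, held 149 and 102 reads. In intron 17 a peak at chr12:115988139-115990283 held 267 and 169 (0.72, 0.43 to 1.00). The peak in intron 14, chr12:115998246-115998599, was the one far below 0, with 56 and 87 reads (−0.58, −1.09 to −0.08).

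FNDC3B, which encodes a membrane protein with fibronectin type III domains, had 26 peaks over 11 introns. All but 1 were above 0, and the sums of 9292 and 7482 reads gave 0.37 (0.33 to 0.41). The exception, chr3:172358115-172358565 in intron 22 of 25, held 107 and 116 reads. It lies next to the highest, chr3:172355660-172356408 in the same intron, which held 214 and 110 (1.02, 0.68 to 1.36). GRID1, a delta glutamate receptor, had 23 peaks, 17 above 0, with 3530 and 3088 reads in all (0.25, 0.18 to 0.32). Its broadest peak, chr10:86177500-86182498 in intron 3 of 15, held 617 and 427 reads (0.59, 0.41 to 0.77).

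RUNX1, the transcription factor whose gene is broken by t(8;21), held 21 later-intron peaks over introns 2 to 4 on chromosome 21. Their median density was 149 scaled reads per kb, and their reads summed to 3464 and 3412, a log2 fold change of 0.08 (0.01 to 0.15). Set to equal reads, the median over its peaks went from 0.14 to 0.03. The peaks ranged from −0.43 to 0.86, with 13 above 0 and 8 below. The highest were chr21:35026975-35027361 with 75 and 43 reads (0.86, 0.30 to 1.44) and chr21:34911439-34911862 with 83 and 48 (0.85, 0.32 to 1.39), both in intron 2 of 8. The lowest, chr21:34964784-34966012 in the same intron, held 106 and 149 (−0.43, −0.81 to −0.07). The most reads were at chr21:34870368-34871730 in intron 2 of a transcript with 5 introns, 362 and 364. RUNX1 introns thus held peaks on both sides of 0 within 1 intron.

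**Figure D4:**
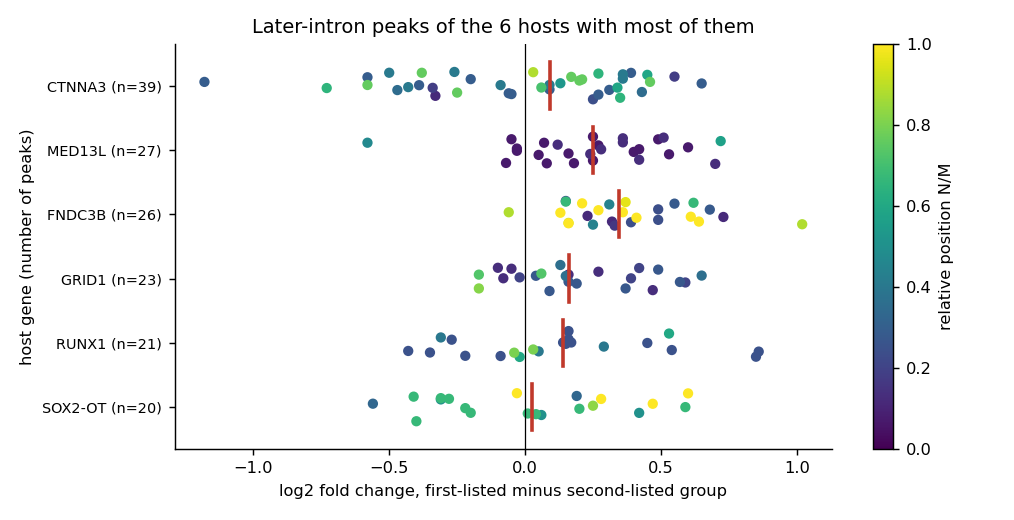
Log2 fold change (first-listed minus second-listed group) of each later-intron peak of the 6 hosts with most of them, coloured by N/M, with a red bar at the median of each host. In FNDC3B 25 of 26 points lie above 0, while CTNNA3 runs from −1.18 to 0.65.

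The log2 fold changes of peaks of 1 gene were only loosely alike. Neighbouring later-intron peaks of 1 host less than 5 kb apart (276 pairs) differed by a median of 0.26 in log2 fold change and correlated with r = 0.35. At 5 to 50 kb (1316 pairs) these were 0.33 and 0.21, and at 50 kb or more (525 pairs) 0.37 and 0.16. The shares of pairs with the same sign were 64.9%, 59.1% and 54.7% in this order. The pairs share genes, libraries and scaling, and in many cases a peak enters 2 pairs. Counting error alone spans −0.50 to 0.56 at the median of 62 and 63 reads. Its part in these differences and low correlations was not tested. In the 169 hosts with at least 5 such peaks the median standard deviation within a host was 0.34. Over all later-intron peaks, a wider set that includes hosts with fewer peaks, the standard deviation was 0.42. Of the 169 hosts 96 had a median above 0 and 73 below, 16 had every peak above 0 and 2 had every peak below.

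Hosts with every peak above 0 on the authors' scale, named after their values were seen, included ZNF516 and AFF1. ZNF516, a zinc-finger transcription factor, had the highest median of the 169, 0.67, with 2250 and 1442 reads over 10 peaks (0.70, 0.60 to 0.80). AFF1, a scaffold of the super elongation complex, had 15 peaks from 0.13 to 0.97 and 2224 against 1632 reads (0.50, 0.41 to 0.60). ZNF516 and AFF1 also had every peak above 0 when columns were set to equal reads. UBE2E2 had 13 of 14 above 0, with a median of 0.58. On the authors' scale the hosts with every peak below 0 were CD36, the fatty acid scavenger receptor, with 223 and 273 reads over 5 peaks, and MGAT4C with 194 and 255. Set to equal reads, 15 of the 169 hosts had every peak below 0 and 6 had every peak above, so the order of these counts turns with the scaling. Of the 5 CD36 peaks, 1 lay inside the RefSeq gene. NAALADL2 had the lowest median, −0.51, with 8 of 9 peaks below 0 and 430 against 614 reads.

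First introns of the same genes were more strongly marked. Of the 1699 hosts, 516 also had a first-intron peak, and in 342 of them (66.3%) the later introns had the lower mean density. The medians over hosts were 70.9 and 88.5 scaled reads per kb. The group difference was nearly alike in both parts: the later introns had the lower mean log2 fold change in 285 hosts and the higher in 226, with a median difference of −0.03. This is smaller than the gap of −0.09 between all later-intron and all first-intron peaks. Over these hosts the later and first means correlated with r = 0.31, and over the 929 hosts with a promoter peak the later and promoter means with r = 0.13. Both members of each pair come from the same columns. The 600 hosts with neither a first-intron nor a promoter peak had a median density of 56.5 scaled reads per kb, against 72.0 for the other 1099.

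JMJD1C, FNDC3B and CHST11 had the most peaks in both places. JMJD1C, a Jumonji-domain protein that acts with RUNX1-RUNX1T1 in leukemia cells, was denser in later introns (193 scaled reads per kb, 15 peaks) than in the first (122, 11 peaks). Its median log2 fold changes were 0.41 and 0.32. FNDC3B went the other way, at 216 in 26 later-intron and 315 in 10 first-intron peaks, with medians of 0.34 and 0.36. CHST11, a chondroitin sulfotransferase, had 93.0 and 102, with 0.20 over 11 later-intron and 0.22 over 9 first-intron peaks. The order of later and first introns in density thus differed between these 3 genes.

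Of 23 genes listed around H4K20 methylation, 2 had later-intron peaks, KMT5A and CUL4A, a scaffold of the ligase that degrades KMT5A. The list took in writers, erasers and readers of the mark, and also CUL4A, which is none of these. The CUL4A peak in intron 2 of 19 held 124 and 117 reads (0.14). Among genes of the t(8;21) fusion and its partners, 8 of 30 had 35 such peaks, 22 above 0, with a median of 0.14. Set to equal reads, 16 of the 35 were below 0 and the median was 0.03. TCF12, an E protein, had 3 peaks with 2 below 0 and a median of −0.27. Stem cell, progenitor and leukemia genes had 33 peaks in 10 of 37 genes, with 23 above 0 and a median of 0.17, or 0.06 at equal reads. Of these, 3 stood at the lowest step, and the other 30 had a median of 0.21. KDM6A, an H3K27 demethylase on the X chromosome, had all 6 of its peaks above 0, among them 150 and 83 reads at chrX:44996267-44997642 (0.91, 0.51 to 1.32).

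Histone methyltransferases and demethylases had the highest share of peaks above 0 among the lists with at least 30 peaks: 53 of 65 peaks in 15 of 45 genes, with a median of 0.34. Over all later-intron peaks the share was 59.6% and the median 0.09. The list was strongly marked, at 120 scaled reads per kb. The strongest class of later-intron peaks, at 122, had 73.2% above 0 and a median of 0.21. JMJD1C and SMYD3 held 15 of the 65 peaks each, so the count rests in large part on these genes. JMJD1C had 14 of its 15 peaks above 0 and 1 at 0.00, from 3323 and 2545 reads. SMYD3, a lysine methyltransferase, had 13 of 15 above 0 from 1857 and 1433 reads, and KDM4B, an H3K9 demethylase, 5 of 6. Set to equal reads, 19 of the 65 were below 0 and the median was 0.23. In the list of acetylation, corepressor and remodeller genes 33 of 51 peaks in 16 of 48 genes were above 0, with a median of 0.15, or 0.04 at equal reads. The acetyltransferase genes KAT6B and KAT6A had 7 of 9 and 4 of 8 above 0. KAT6B had 1 peak well above the rest, chr10:74871343-74872651 in intron 2 of 16, with 335 and 184 reads (0.91, 0.66 to 1.19). ARID2 had all 4 of its peaks below 0, from −0.89 to −0.13, with 432 and 581 reads in all.

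The signalling list had a median above that of all later-intron peaks. The ubiquitin ligase list had one slightly below it, but a larger share of peaks above 0. Phosphoinositide, MAPK and mTOR genes had 40 peaks in 14 of 46 genes with a median of 0.20 (0.09 at equal reads), led by MAP4K4, a kinase upstream of JNK, with 2036 and 1576 reads over 11 peaks. LYN, a SRC-family kinase, had a median of 0.11 over 7 peaks. Ubiquitin ligases had 19 peaks in 13 of 44 genes with a median of 0.06 (−0.05 at equal reads). Of the 19, 14 were above 0 (73.7%, against 59.6% of all later-intron peaks), and 11 were below 0 at equal reads. By gene, 11 were above 0 and 1 below on the authors' scale. RNF216 had the most, 6 peaks from −0.50 to 0.03.

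The splicing factor genes that held later-intron peaks were strongly marked, with a small median difference between the groups. They had 45 peaks in 10 of 48 genes, with 174 scaled reads per kb and a median log2 fold change of 0.10 (−0.01 at equal reads). CELF2 had 18 peaks and 5300 against 5055 reads, all between −0.14 and 0.32, the narrowest range of the genes with at least 15 peaks in these lists. The strongest CELF2 peak by reads, chr10:11190978-11193618 in intron 2 of 12, held 685 and 713. MBNL1 had 16 peaks with a median of 0.13 and 126 scaled reads per kb, against 217 in CELF2. The values of the list are thus mostly those of CELF2 and MBNL1. DHX15, a spliceosome helicase, had 2 peaks, both below 0, with 452 and 612 reads in the larger at chr4:24563868-24566326 (−0.39, −0.56 to −0.20). DNA replication and repair genes had 13 peaks in 8 of 56 genes, with 8 below 0 and a median of −0.04, among them PRKDC, RFC1 and TOP1.

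The mitochondrial list of dynamics, biogenesis and mitophagy had 10 peaks in 3 of 41 genes, 9 above 0, with a median of 0.47. CHCHD6, a subunit of the MICOS complex of the inner membrane, held 8 of them in introns 4 to 6 of 7, with 3463 and 2349 reads in all. The one with most reads, chr3:126924586-126929237, held 1105 and 629 (0.87, 0.73 to 1.01), and another at chr3:126910602-126912415 held 879 and 583 (0.65, 0.50 to 0.80). The single peak of PINK1, the kinase that starts mitophagy, held 48 and 36 reads and that of TFAM, which packages mitochondrial DNA, 68 and 54, with intervals that include 0. The count for the list is thus mostly that of 1 gene.

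Long neuronal and adhesion genes lay below 0 more often. They had 173 peaks in 21 of 38 genes with 100 below 0 and a median of −0.08, and 15 of the 21 genes had a mean below 0. Their density was low, 56.1 scaled reads per kb. CSMD1 had 13 of 17 peaks below 0 (702 and 909 reads) and DLG2, a synaptic scaffold, 12 of 17 (932 and 1050 reads), among them 59 and 104 reads at chr11:84193682-84195101 in intron 2 of 21 (−0.76, −1.25 to −0.29). CTNNA3, with the most peaks in the list, had 22 of 39 above 0. That such genes are low in the first-listed group was known from earlier results of these data, so this count is no independent evidence.

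**Figure D5:**
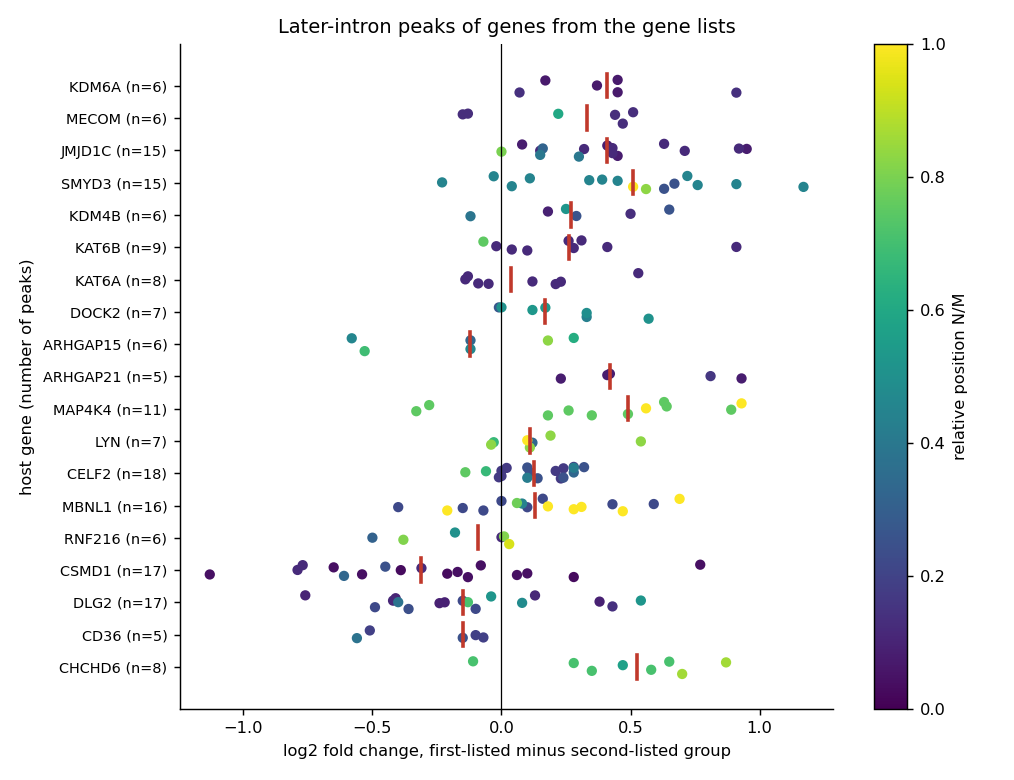
Log2 fold change (first-listed minus second-listed group) of each later-intron peak of genes from the gene lists with at least 5 such peaks, leaving out genes with lowest-step peaks and those of the plot of the 6 hosts, coloured by N/M, with a red bar at each gene's median. All 6 points of KDM6A lie above 0, and all 5 of CD36 below.

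The labelled cell type was set beside its marker genes, with the limit that H4K20me1 covers active and silent genes alike and a peak is no measure of expression. Of 8 leukemic progenitor markers 7 had a peak of any kind (FLT3 had none), and ERG, KIT, PTPRC and RUNX1 had later-intron peaks. Of 8 erythroid and megakaryocyte markers, GATA1 and HBB among them, 0 had any peak, and the erythroid and megakaryocytic list had 0 later-intron peaks in 20 genes. Of 10 neuron markers 8 had a peak and 6 a later-intron peak, of 10 B and T cell markers 4 and 3, and of 5 liver markers 3 and 0. The marker sets were not matched for gene length. Protein-coding hosts of later-intron peaks had a median length of 116 kb, against 24.1 kb for all protein-coding genes. The part of length in these counts was not tested, so they do not tell cell types apart. The lymphoid list had 8 peaks in 4 of 20 genes, 5 of them above the lowest step, among them 3 of PAX5 and 1 of BCL11B. All 3 THEMIS peaks and 3 of 4 PTPRC peaks stood at the lowest step and give no usable fold. The recovery sets at least 1 read per group, so this step may stand for fewer. The myeloid list had 12 peaks in 2 of 38 genes, LYN and CD36. Over chromosomes, 20 of the 21 with at least 20 later-intron peaks had a median above 0 on the authors' scale and 9 with columns set to equal reads. Chromosome X had the highest median, 0.23 over 50 peaks, and chromosome 14 the lowest, −0.01 over 85.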

How the data were processed

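The deposited table of 25514 peaks holds, per the submitters' processing notes, output made with cutadapt, Bowtie2, DESeq and build hg38. For versions, the peak caller and how many libraries each value holds, the sources used here give nothing. The authors deposited, for each peak, log2 scaled reads of both groups, their log2 fold change, and a p-value with and without adjustment. Their columns are named only by number and were identified from the values. The authors' low log2 values equal log2 of whole numbers plus a constant (0.000 and −0.057, 100.0% within 0.0051), which gave recovered reads, exact at low values and approximate above. Totals were 2791207 and 2682916 reads in peaks, of which 377806 and 354138 lay in later-intron peaks. Small read numbers are often even, so both ends of a fragment may be counted and intervals may be too narrow.

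Introns and hosts came from the annotation column, and symbols, lengths and start windows from RefSeq GRCh38.p14. Scaffolds of chromosome 6 (7 peaks) were kept, since the rule names the chromosome. The 10 highest and 10 lowest peaks had at least the median signal, 1 per host gene, without LOC, long intergenic, small RNA or antisense hosts. Other named genes were the 6 hosts with most peaks, the 3 peaks with most reads, the extremes of each N/M bin, up to 3 genes per list and the 3 hosts with most peaks in first and later introns. Some items that this rule names are not reported here. Members and lists were chosen with earlier results of these data known. Motif and GC counts of whole peaks were planned, and no genome was used here. Scripts were tested on simulated data with Python 3.11.15, pandas 2.3.3, numpy 2.4.6 and scipy 1.17.1.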

Additional observations from a re-analysis of the deposited data

How the results depend on the processing

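Of 46 alternative settings 29 left their result within its interval or within 1.5 times its count, and 17 moved it. The median log2 fold change of 0.09 became −0.02 with columns set to equal reads in peaks, 0.03 without scaling, 0.18 at or above the table's median signal and 0.06 with all segments kept. The 72 peaks whose log2 fold change reached 1 became 442 at a 1.5-fold threshold, 27 at or above the median signal and 33 with equal reads. The 24 of −1 or less became 204, 2 and 46. The 145 higher peaks at an unadjusted p under 0.05 became 37 at 0.01 and 86 at or above the median signal, and the 51 lower ones 12 and 10. The gap to first introns, −0.09, was −0.05 with peaks below the median signal left out and −0.03 in the same host genes, and the gap to promoters, −0.03, was 0.03 at or above the median signal. The causes were not tested. The setting by same hosts, 3 that used the RefSeq span and 1 by base position were chosen after seeing the data. No paired analysis was possible because each group has 1 column, which also leaves no replicate to omit. At the median of 62 and 63 reads the exact 95% interval of a log2 fold change ran from −0.50 to 0.56 by counting error alone. The deepest peak (PDGFRA, 1428 and 1095 reads) had an unadjusted p of 0.169 in the authors' deposited table.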
